A study of Arundinella anomala and Arundinella fluviatilis and Arundinella hirta with 8 samples.

Results

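Four-carbon acids, PEP and triose phosphates cross the chloroplast envelope at several steps of the C4 cycle, and the carriers that move them are described here across the leaves of 8 C4 grasses. They are 4 maize gene models, taken by identifier with all their protein models from a table of 26274 genes: the triose phosphate translocator (TPT, GRMZM2G070605), the PEP/phosphate translocator (PPT, GRMZM2G174107), the 2-oxoglutarate/malate transporter DiT1 (GRMZM2G383088) and the dicarboxylate transporter DiT2 (GRMZM2G086258). The names of these and of all other genes come from general knowledge of maize, since the deposited files hold identifiers only. RNA was sequenced from mature wild-type leaves (the leaf in position 3) of plants grown at 22 °C with 16 h of light and 8 h of dark, with 1 library per species. The genus *Arundinella* was represented by *A. pubescens*, *A. anomala*, *A. fluviatilis*, *A. nepalensis* and *A. hirta*, and 3 other genera by *Imperata cylindrica*, *Bothriochloa ischaemum* and *Capillipedium parviflorum*, in order of falling number of genes listed. No species was compared under a second treatment, and without a second library neighbouring species in any order of levels cannot be told apart by replicate error.

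In C4 leaves of the maize type, oxaloacetate made by PEP carboxylase enters mesophyll chloroplasts, is reduced there to malate and leaves again, and a carrier of the DiT family exchanges these acids. Malate then enters bundle sheath chloroplasts, again through a dicarboxylate carrier, and is decarboxylated beside Rubisco. Pyruvate orthophosphate dikinase (PPDK) rebuilds PEP inside mesophyll chloroplasts, and the PEP/phosphate translocator lets it out in exchange for phosphate. The triose phosphate translocator exchanges triose phosphate and 3-phosphoglycerate for phosphate, and in C4 leaves it also serves the traffic of these compounds between both cell types.

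Levels are given in FPKM as deposited and are assigned to maize protein models. They are scaled for the length of the sequence and the size of the library, which lets genes be compared within a library. FPKM do not correct for how far the sequence of a gene differs from its maize model. Ratios between genes therefore also carry any loss in that assignment. The libraries differed in extent: 4 *Arundinella* libraries listed 18023 to 20607 genes above 0, whereas *A. hirta* listed 10697 and the 3 other genera 8142 to 10198. Summed FPKM ranged from 212357 in *C. parviflorum* to 829005 in *A. pubescens*, and read depth is unknown. Of the genes that reached 100 FPKM in *A. pubescens*, *A. anomala* and *A. fluviatilis* alike, 5.70% were at 0 in *A. nepalensis*, 35.2% in *A. hirta* and 37.8% to 51.0% in the 3 other genera. A value of 0 is therefore reported only as a listing at 0. A gene of the small subunit of Rubisco (GRMZM2G113033), an abundant leaf transcript, was at 1380 to 11028 FPKM in 7 libraries and at 35.8 FPKM in *I. cylindrica*. In whole leaves, a lower share of the cells that express a gene and less RNA per cell cannot be told apart.

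The triose phosphate translocator was the abundant carrier of the set. It was at 3538 FPKM in *A. pubescens*, 1945 in *A. anomala*, 2241 in *A. fluviatilis*, 857 in *A. nepalensis* and 2889 in *A. hirta*. Outside the genus it was at 2253 FPKM in *I. cylindrica*, 2968 in *B. ischaemum* and 1776 in *C. parviflorum*. Levels of the 3 other genera thus lay inside the range of *Arundinella*, and *A. nepalensis* stood lowest, 2.07-fold under *C. parviflorum*. Above *A. nepalensis*, each step in the order of levels was 1.28-fold or less. The highest level was 4.13 times the lowest, against a median ratio of 18.0 for the 1586 genes above 0 in every library, and 5.74% of those genes had a ratio this small or smaller. Besides this translocator, GRMZM2G092311, noticed after its values were seen and without a name in the files, was the only gene at or above 857 FPKM in every library.

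**Figure D1:**
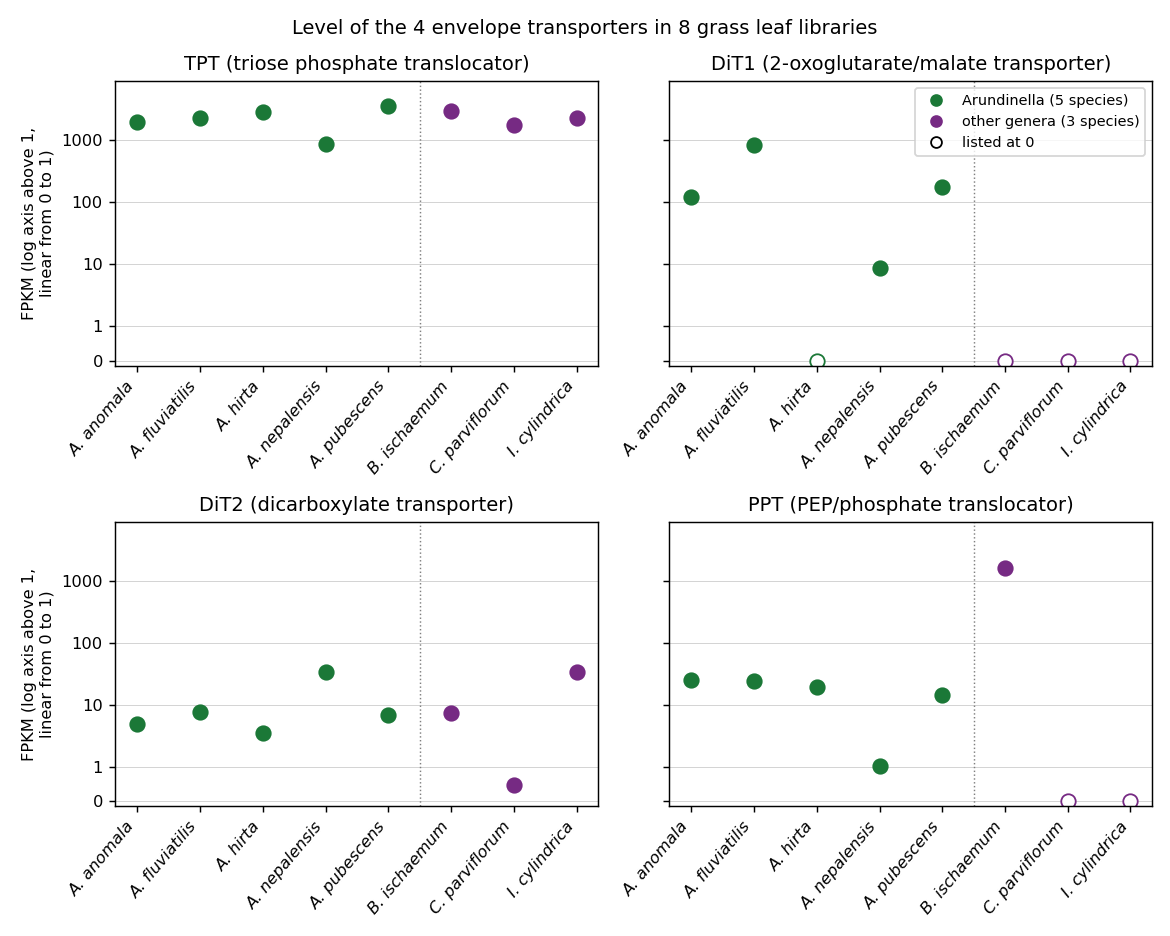
FPKM of each transporter (vertical axis, logarithmic above 1) in the 5 *Arundinella* libraries and, right of the dotted line, the 3 libraries of other genera, with 1 point per library and open points for listings at 0. TPT stayed between 857 and 3538 FPKM, DiT1 was listed at 0 in 4 libraries, and PPT reached 1624 FPKM in *B. ischaemum* alone.

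Within its own library the triose phosphate translocator ranked 16th of the listed genes in *A. pubescens*, 25th in *A. anomala* and in *A. fluviatilis*, 72nd in *A. nepalensis* and 7th in *A. hirta*. It ranked 22nd in *I. cylindrica*, 9th in *B. ischaemum* and 17th in *C. parviflorum*. It was therefore among the top 0.400% of listed genes in each library. The apparent steadiness depended on the scale. Per 1000000 of summed FPKM it was at 4268 in *A. pubescens*, 2426 in *A. anomala*, 2756 in *A. fluviatilis*, 1222 in *A. nepalensis* and 9044 in *A. hirta*, against 6446 in *I. cylindrica*, 10434 in *B. ischaemum* and 8364 in *C. parviflorum*. On that scale the 4 libraries that list the fewest genes were the 4 highest, the ratio of highest to lowest was 8.54, and 30.1% of the 1586 genes had a ratio this small or smaller. Against the median listed gene of its library, the level was 63.7 times higher in *A. nepalensis* and 731 times higher in *B. ischaemum*, the lowest and highest of the 8 values.

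**Figure D2:**
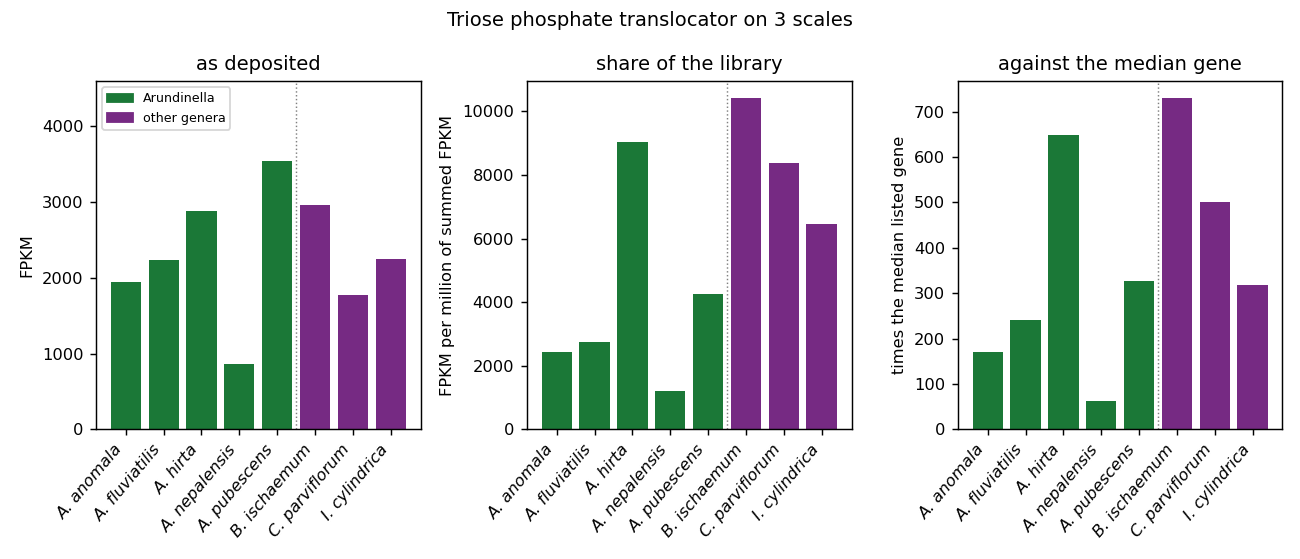
The triose phosphate translocator on 3 linear scales, with 1 bar per library: FPKM as deposited, FPKM per 1000000 of summed FPKM, and multiples of the median listed gene. *A. pubescens* was highest as deposited at 3538 FPKM, while *B. ischaemum* was highest on the other scales, at 10434 per 1000000 and 731 times the median.

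The PEP/phosphate translocator was at 24.8 FPKM or less, or listed at 0, in every library but that of *B. ischaemum*. Its level was 14.5 FPKM in *A. pubescens*, 24.8 in *A. anomala*, 24.3 in *A. fluviatilis*, 1.02 in *A. nepalensis* and 19.5 in *A. hirta*. *B. ischaemum* had 1624 FPKM, whereas *I. cylindrica* and *C. parviflorum* listed the gene at 0. The value of *B. ischaemum* was 65.5 times that of *A. anomala*, the next highest. Among 25885 genes above 0 in at least 1 of the other 7 libraries, 5 including this translocator exceeded all of those libraries by that factor or more in *B. ischaemum*. It ranked 23rd of the listed genes in *B. ischaemum*, between 2255th and 16556th in the *Arundinella* libraries, and there highest in *A. hirta*. Of the listed genes, 78.9% were lower in *A. hirta*, 73.3% in *A. fluviatilis*, 69.4% in *A. anomala*, 57.7% in *A. pubescens* and 8.06% in *A. nepalensis*. Of the 4 *Arundinella* species above *A. nepalensis*, neighbours in order differed by 1.34-fold or less.

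DiT1, which in maize exchanges oxaloacetate and malate across the mesophyll chloroplast envelope, was listed in *Arundinella* libraries only. Its level was 177 FPKM in *A. pubescens*, 122 in *A. anomala*, 829 in *A. fluviatilis* and 8.64 in *A. nepalensis*, with a listing at 0 in *A. hirta* and in all 3 other genera. *A. fluviatilis* was 4.68 times *A. pubescens*, which was 1.45 times *A. anomala*, and *A. nepalensis* lay 14.2-fold under *A. anomala*. The 4 libraries at 0 were those that list the fewest genes, and the part of that extent in the result was not tested. A listing in *Arundinella* libraries only was common, at 8774 genes or 33.6% of those above 0 in any library. The same pattern over all 8 libraries was shared by 1560 genes, 5.97% of those above 0 in any library. Where it was listed, DiT1 ranked 99th in *A. fluviatilis*, 569th in *A. pubescens*, 1040th in *A. anomala* and 10830th in *A. nepalensis*.

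DiT2, the dicarboxylate carrier that in maize lets malate into bundle sheath chloroplasts, was above 0 in every library but never abundant. *Arundinella* leaves had 6.84 FPKM in *A. pubescens*, 4.95 in *A. anomala*, 7.59 in *A. fluviatilis*, 34.3 in *A. nepalensis* and 3.53 in *A. hirta*. The 3 other genera had 33.9 FPKM in *I. cylindrica*, 7.43 in *B. ischaemum* and 0.46 in *C. parviflorum*. *A. nepalensis* and *I. cylindrica* were therefore level with each other and 4.47-fold or more above the rest, and *C. parviflorum* lay 7.67-fold under *A. hirta*. Its highest level was 74.6 times its lowest, and 85.7% of the 1586 genes above 0 in all 8 libraries had a ratio this small or smaller. It stood in the upper 13.0% of listed genes in *I. cylindrica*, the upper 25.2% in *A. nepalensis* and the upper 36.6% in *B. ischaemum*, and its rank lay 54.7% to 96.4% of the way down in the 5 other libraries.

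**Figure D3:**
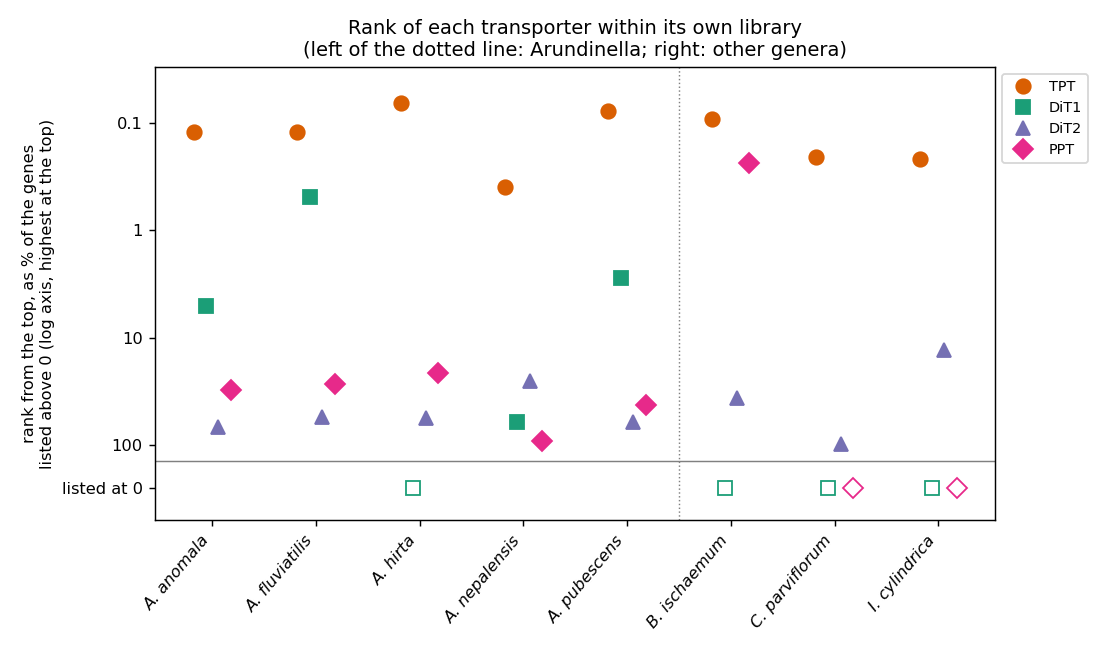
Rank of each transporter from the top of its own library, as a percentage of the genes listed above 0 there (logarithmic axis, most abundant at the top), with listings at 0 below the line. TPT lay within the top 0.400% throughout, PPT joined it only in *B. ischaemum* at 0.238%, and DiT1 came nearest to it in *A. fluviatilis* at 0.486%.

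The 4 genes occupied 7 lines of the table, and the split between protein models bore mainly on DiT2. DiT1 had 1 model. For the triose phosphate translocator, the second model (P02) was at 0 in every library, so that all fragments stood under P01. For the PEP/phosphate translocator, P02 was above 0 in *A. anomala* alone, at 7.24 FPKM or 29.2% of the gene, and the value of *B. ischaemum* stood wholly under P01. DiT2 was listed under P02 alone in *A. nepalensis*, *A. pubescens* and *I. cylindrica*, and under P01 alone in *A. hirta* and *C. parviflorum*. In *A. anomala*, *A. fluviatilis* and *B. ischaemum* both models were listed, with 55.6%, 65.1% and 72.0% under P02. The high DiT2 levels of *A. nepalensis* and *I. cylindrica* thus came from P02, which was at 6.84 FPKM or less in the other libraries, while P01 did not exceed 3.53 FPKM in any library. Per the submitters' processing notes the values come from RSEM, which estimates how fragments divide among similar sequences, and models of a gene or close relatives can exchange values.

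Within libraries, the triose phosphate translocator exceeded each of the other carriers in 8 of 8 libraries. The difference of log2(FPKM + 1) averaged 7.65 ± 4.08 over DiT1, 7.98 ± 1.82 over DiT2 and 7.40 ± 3.22 over PPT (SD, n = 8; two-sided exact permutation by sign flips, p = 0.0078 each, the smallest that 8 libraries allow, and 0.0156 adjusted over the 6 pairs compared). The closest approaches were those of PPT in *B. ischaemum*, where the triose phosphate translocator was 1.83 times higher, and of DiT1 in *A. fluviatilis*, where it was 2.70 times higher. Over DiT2 the ratio was between 25.0 in *A. nepalensis* and 3861 in *C. parviflorum*. Its share of the summed FPKM of the 4 carriers was lowest at 72.2% in *A. fluviatilis* and 64.5% in *B. ischaemum*, and between 92.7% and 99.97% in the 6 other libraries. Restricted to libraries where the compared carriers are above 0, the lead over DiT1 was 4.09 in 4 libraries and that over PPT 6.42 in 6, and with so few libraries neither passed (adjusted exact permutation p = 0.1875 and 0.0938).

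Of the 3 remaining pairs, DiT1 against DiT2 and PPT against DiT2 took opposite directions in different species. DiT1 exceeded PPT wherever both were listed, and PPT was higher only where DiT1 was listed at 0. DiT1 exceeded DiT2 by 24.7 times in *A. anomala*, 109 times in *A. fluviatilis* and 25.9 times in *A. pubescens*. DiT2 led by 3.97 times in *A. nepalensis*, and it was above 0 where DiT1 was listed at 0 in the 4 other libraries. The mean difference of DiT1 minus DiT2 was 0.33 ± 4.25 (SD, n = 8; exact permutation p = 0.8281, adjusted 0.9688), and it turned negative without *A. anomala* (−0.24), *A. fluviatilis* (−0.56) or *A. pubescens* (−0.26). PPT exceeded DiT2 by 2.12 to 5.51 times in *A. anomala*, *A. fluviatilis*, *A. hirta* and *A. pubescens* and by 219 times in *B. ischaemum*, whereas DiT2 led by 33.6 times in *A. nepalensis* and was above a PPT listed at 0 in *C. parviflorum* and *I. cylindrica*. The mean difference of PPT minus DiT2 was 0.58 ± 3.98 (SD, n = 8; exact permutation p = 0.7109, adjusted 0.9688), and without *B. ischaemum* it was −0.42. DiT1 exceeded PPT by 4.93, 34.1, 8.47 and 12.2 times in *A. anomala*, *A. fluviatilis*, *A. nepalensis* and *A. pubescens*. The mean difference was −0.24 ± 5.07 (SD, n = 8, with an exact permutation p of 0.9688, adjusted 0.9688). It included *B. ischaemum* and *A. hirta*, where DiT1 was listed at 0. *C. parviflorum* and *I. cylindrica*, with both carriers listed at 0, entered it with a difference of 0. Without *B. ischaemum* that mean was 1.24, and without *A. hirta* it was 0.34. These differences were smaller than their spread between species, and where a carrier is at 0 they are set by the pseudocount of 1.

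**Figure D4:**
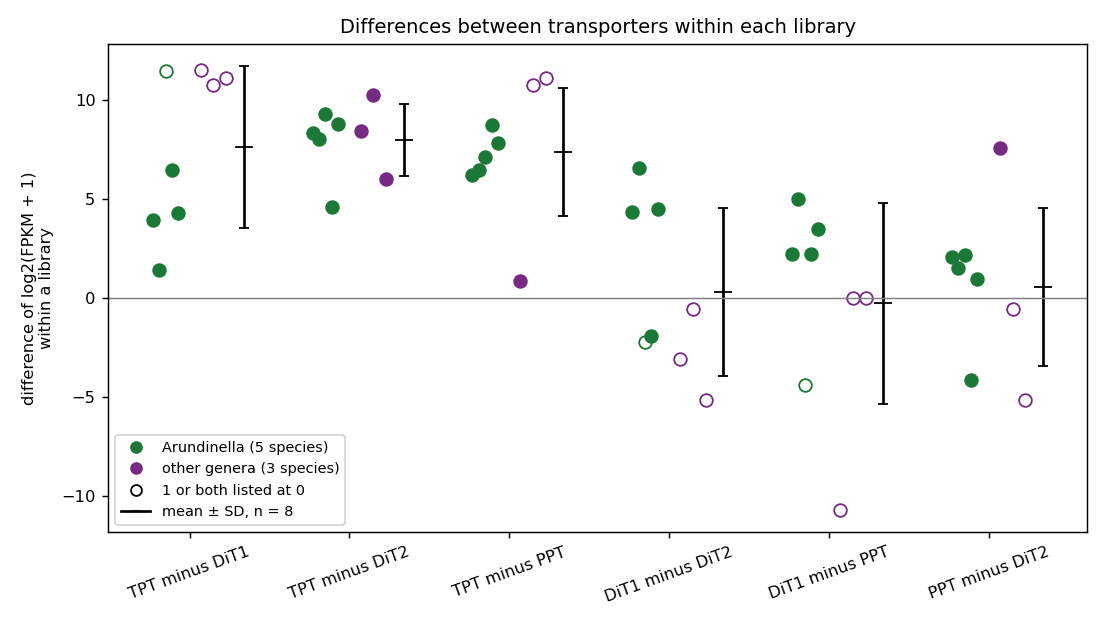
Difference of log2(FPKM + 1) between transporters within each library for the 6 pairs, with 1 point per library, open where 1 or both carriers are listed at 0, and the mean ± SD over 8 libraries in black. The 3 pairs with TPT lie above 0 in all 8 libraries, and the 3 others spread on both sides of 0.

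The 5 *Arundinella* libraries were set against the 3 of other genera in a fit over 18780 genes (limma on log2(FPKM + 1), Benjamini-Hochberg adjustment), in which 1.83% of genes passed. None of the 4 transporters passed, and none had groups that did not overlap, as 12.9% of all genes tested did. At an unadjusted p under 0.05 there was 1 transporter, DiT1, where 29.1% of all genes lay. Without limma's trend the result was also 0 of 4. The median log2 difference of the 4 carriers was 0.23, against 1.74 for all genes tested, so that DiT2, PPT and TPT were fitted below the shift of the median gene.

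DiT1 averaged 227 ± 345 FPKM in *Arundinella* (SD, n = 5) and was listed at 0 in the 3 other genera. Its fitted log2 difference of 5.48 ± 1.80 (SE), which rests on the pseudocount because those genera are at 0, had a limma adjusted p of 0.0954. Without *A. hirta*, also at 0, the limma adjusted p was 0.0072, in a fit in which 33.4% of all genes passed. DiT2 averaged 11.4 ± 12.9 FPKM in *Arundinella* (SD, n = 5) and 13.9 ± 17.6 FPKM in the other genera (SD, n = 3), with a log2 difference of 0.28 ± 1.25 (SE; limma, adjusted p = 0.872). TPT averaged 2294 ± 1011 FPKM in *Arundinella* (SD, n = 5) and 2332 ± 600 FPKM in the other genera (SD, n = 3), with a log2 difference of −0.14 ± 1.24 (SE; limma, adjusted p = 0.936). PPT averaged 16.8 ± 9.77 FPKM in *Arundinella* (SD, n = 5) and 541 ± 937 FPKM in the other genera (SD, n = 3). Its log2 difference was 0.18 ± 2.08 (SE, with a limma adjusted p of 0.950), and it rose to 3.74 without *B. ischaemum*. For DiT2 and PPT the FPKM means were higher in the other genera, opposite in sign to the fitted log2 differences. The signs for DiT2 and PPT turned under quantile normalization (−2.03 and −1.42), median-of-ratios scaling (−0.60 and −0.36) and scaling to a common sum (−0.64 and −0.35), with median genes at −0.16, 1.14 and 1.18. In the same 3 settings the log2 difference of TPT was −0.48, −1.25 and −1.38, and it did not pass.

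The extent of listing moved with genus. Of the libraries with fewer than 15000 genes listed, *A. hirta* alone was *Arundinella*, at 2889 FPKM of TPT against 1776 to 2968 in the 3 other genera, at 3.53 of DiT2 against 0.46 to 33.9, at 19.5 of PPT against 0 to 1624, and at 0 of DiT1 against 0 in all 3. No library of another genus listed more than 15000 genes, so that nothing could be compared at that extent, and 1 library against 3 gives no replicated comparison within the other. Whether the differences between carriers depended on genus could hardly be shown with these libraries, since the smallest p of a pair, 0.0179, becomes 0.1071 after adjustment over 6 pairs unless several pairs reach it. DiT1 minus DiT2 averaged 2.28 ± 4.03 in *Arundinella* (SD, n = 5) and −2.92 ± 2.29 in the other genera (SD, n = 3; exact two-sided permutation over 56 splits, p = 0.0893, adjusted over 6 pairs 0.3214), and the 5 other pairs had exact permutation p-values of 0.1071 to 1.

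Of 12 other C4 cycle genes set beside the carriers, 1 was higher in *Arundinella* in the same fit, 0 were lower and 11 did not pass. The 1 was aspartate aminotransferase (GRMZM2G094712; limma, adjusted p = 0.0477), beside 1.83% of all genes tested. That call ended in 12 of the 16 other settings of the fit, among them any single library other than *A. hirta* left out (limma, adjusted p of 0.0774 to 0.154). The carriers' median log2 difference of 0.23 stood beside 4.003 for these 12 genes and 1.74 for all genes tested. This list was chosen with earlier results of these data known, and its PPDK gene model GRMZM2G097457 was added after its values were seen.

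DiT1 was read beside NADP-malate dehydrogenase (GRMZM2G129513), which reduces the oxaloacetate that DiT1 is known to bring in. The enzyme was at 852 FPKM in *A. anomala*, 2410 in *A. fluviatilis* and 258 in *A. nepalensis*, where it exceeded DiT1 by 6.97, 2.91 and 29.8 times. In *A. pubescens* it was at 49.3 FPKM, and DiT1 exceeded it by 3.59 times. Both were listed at 0 in *I. cylindrica*, *B. ischaemum* and *A. hirta*, and in *C. parviflorum* DiT1 was listed at 0 with the enzyme at 588 FPKM. *A. fluviatilis* was thus highest for carrier and enzyme alike. In *I. cylindrica* DiT1 was listed at 0 with the C4 PEP carboxylase (GRMZM2G083841) at 11746 FPKM, whereas in *A. pubescens*, *A. anomala* and *A. fluviatilis* that enzyme exceeded DiT1 by 41.7, 18.7 and 29.9 times. In *A. nepalensis* DiT1 was at 8.64 FPKM with that enzyme at 10.02 FPKM. Neither DiT1 nor the C4 PEP carboxylase was above 0 in *C. parviflorum*, *B. ischaemum* or *A. hirta*. The part of assignment to maize models in these listings at 0 was not tested.

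DiT2 was read beside the C4 NADP-malic enzyme (GRMZM2G085019), which decarboxylates malate in bundle sheath chloroplasts. The enzyme exceeded DiT2 by 401 times in *A. anomala* and in *A. fluviatilis*, by 248 times in *A. pubescens* and by 119 times in *I. cylindrica*. In *A. nepalensis* DiT2 exceeded it by 22.3 times, and in *B. ischaemum* DiT2 and the enzyme were at 7.43 and 7.97 FPKM. In *A. hirta* and *C. parviflorum* the enzyme was listed at 0. The 2 libraries highest in DiT2, *A. nepalensis* and *I. cylindrica*, differed widely in the enzyme, at 1.54 and 4049 FPKM.

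PPT exports PEP, the product of PPDK, for which there were 2 gene models, and the order of carrier and enzyme differed between them. GRMZM2G097457, chosen after its values were seen, was the more abundant model in each library but *A. nepalensis*. There it was at 137 FPKM and the other model at 196 FPKM. GRMZM2G097457 exceeded PPT by 498 times in *A. anomala*, 898 times in *A. fluviatilis*, 134 times in *A. nepalensis* and 384 times in *A. pubescens*. In *I. cylindrica* PPT was listed at 0 with this model at 9941 FPKM. PPT was above this model in *B. ischaemum*, by 582 times at 1624 and 2.79 FPKM, and in *A. hirta*, by 1.91 times at 19.5 and 10.2 FPKM. Against the other model, GRMZM2G306345, PPT was higher by 3.67 times in *A. anomala*, 7.33 times in *A. fluviatilis*, 3.97 times in *A. pubescens* and 1.96 times in *A. hirta*, and lower by 192 times in *A. nepalensis*. In *B. ischaemum*, where that model was at 1.16 FPKM, PPT was 1400 times higher. The ratios of *B. ischaemum* thus rest on low levels of both PPDK models. The C4 PEP carboxylase and NADP-malate dehydrogenase were listed at 0 in that library.

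**Figure D5:**
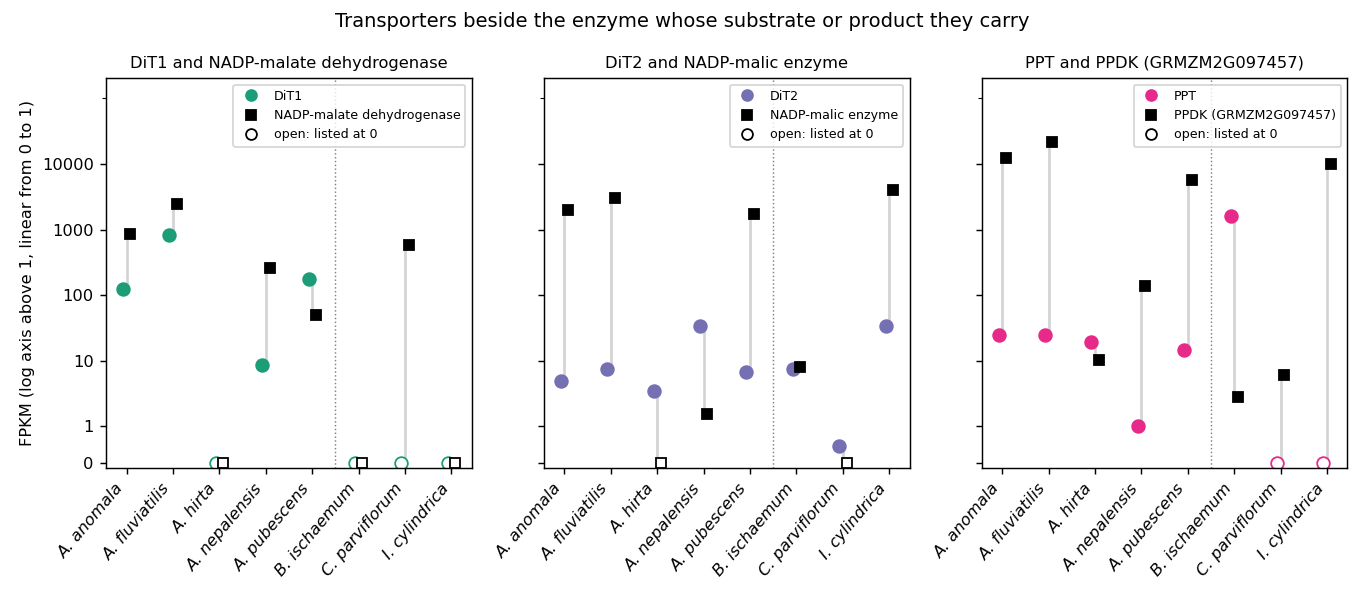
FPKM of DiT1, DiT2 and PPT (coloured circles) beside NADP-malate dehydrogenase, NADP-malic enzyme and the PPDK gene model GRMZM2G097457 (black squares) in each library, on an axis that is logarithmic above 1, with open symbols for listings at 0. PPT lies 134 to 898 times under that PPDK model in 4 *Arundinella* libraries. In *B. ischaemum*, where the model was at 2.79 FPKM, PPT lies 582 times above it. The other PPDK gene model is not drawn.

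Likeness of pattern was measured as Pearson's r of log2(FPKM + 1) over the 8 libraries and is given as a description, since points share library, extent of listing and ancestry. Among the other C4 genes, DiT1 was most like alanine aminotransferase (GRMZM2G088064, r = 0.93), which makes alanine from pyruvate. That enzyme was at 84.0 to 653 FPKM in the 4 libraries that list DiT1, at 0.99 FPKM in *A. hirta*, at 8.72 FPKM in *I. cylindrica* and at 0 in the remaining 2. Over 8537 genes with a mean of at least 10 FPKM that were above 0 in at least as many libraries, GRMZM2G164318 was most like DiT1 (r = 0.99), and 443 genes (5.19%) reached an r of 0.9. A high likeness to DiT1 was therefore common. Within the other C4 genes DiT2 was most like the PPDK gene model GRMZM2G306345 (r = 0.63, Spearman's rank correlation 0.26). PPT was most like PEP carboxylase kinase (GRMZM2G178074, r = 0.65, rank correlation 0.72). TPT reached r = 0.36 with carbonic anhydrase 1 (GRMZM2G121878, rank correlation 0.27). The r of DiT2 that was largest in size was negative, at −0.96 with carbonic anhydrase 2 (GRMZM2G348512, rank correlation −0.73). For DiT2 and TPT the same limits left 1038 genes to compare, of which 1 and 0 reached an r of 0.9. For PPT they left 4931 genes, of which 1 did. Over the genes compared, that most like DiT2 was GRMZM2G138676 (r = 0.94). The gene most like PPT was GRMZM2G012685 (r = 0.90), and that most like TPT was AC190623 (r = 0.88). The files give no names for these 4 genes. Among the carriers themselves, the highest r was 0.52, between TPT and PPT, and DiT1 and DiT2 had an r of 0.06.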

How the data were processed

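The deposited table gives FPKM per maize protein model, in 36698 lines and 1 column for each of 8 species. The authors made these values with RSEM, per the submitters' processing notes; the aligner, versions and the step that tied fragments of each species to maize models are not stated in the labels or files. A sequence that differs from maize can thus be listed low or at 0. No counts were given, so depth is unknown and intervals for counting error cannot be had. Models were summed to 26274 genes, and columns were matched to species by name. Replicates are species numbered in accession order, so p-values reflect only the spread among the 8 libraries, and species of a genus share ancestry.

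The fit used limma 3.58.1 (trend) in R 4.3.3 on log2(FPKM + 1) of the genes that reached 1 FPKM in 3 or more libraries, two-sided, at an adjusted p of 0.05. That scale understates changes of low genes. Differences within libraries used exact sign-flip tests. Tests were tried on simulated data. Other steps ran in Python 3.11.15 (numpy 2.4.6, pandas 2.3.3, scipy 1.17.1), with plots by matplotlib 3.10.9. The members, the list of other C4 genes and the tests were chosen with earlier results of these data known. Named genes are the 4 carriers, 12 other C4 genes, a Rubisco gene and the gene most like each carrier. No sequences were used.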

Additional observations from a re-analysis of the deposited data

Results flagged for a closer look

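Among 10 sets of values looked at for a library far from the others, 2 held such a library. The sets were FPKM of the 4 carriers in *Arundinella* and log2 differences of the 6 pairs over 8 libraries. The chance rate of about 1 in 20 holds for normally distributed values and separate sets. FPKM are skewed and the pairs share carriers, so 2 of 10 cannot be set against that rate. DiT1 in *A. fluviatilis*, at 829 FPKM, stood above the next *Arundinella* library by 78.7% of the range of all 5. DiT2 in *A. nepalensis*, at 34.3 FPKM, stood above the next by 86.8% of that range, while *I. cylindrica* outside the genus was at 33.9 FPKM. These gaps are on FPKM. On log2(FPKM + 1) they were 22.9% and 68.8% of the range, both under the limit of 71%, whereas PPT in *A. nepalensis*, at 1.02 FPKM, then lay 80.0% of the range below the next library.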

How the results depend on the processing

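No paired analysis was possible because the labels carry no replicate numbers that tie *Arundinella* libraries to those of other genera; the carriers were compared within libraries. The lead of TPT over each other carrier kept its direction in every setting tried. With 0 taken as missing it was 4.09 over DiT1 and 6.42 over PPT and no longer passed. In the 4 libraries with more than 15000 genes listed, a choice made after seeing the data, it was 4.05, 7.45 and 7.32 over DiT1, DiT2 and PPT, and 4 libraries cannot pass. The 3 other pairs never passed, and their signs turned: DiT1 minus DiT2 with a pseudocount of 0.1 (−1.03) and on percentile ranks (−7.24 points); PPT minus DiT2 in the same settings (−0.076, and −0.30 points); DiT1 minus PPT with a pseudocount of 10 (0.16), with 0 as missing (3.52) and in the 4 libraries (3.27). Leaving out 1 library gave 7.09 to 8.53, 7.66 to 8.46 and 6.87 to 8.34 for TPT over DiT1, DiT2 and PPT, −0.56 to 1.11 for DiT1 minus DiT2, −0.998 to 1.24 for DiT1 minus PPT and −0.42 to 1.39 for PPT minus DiT2.

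In the comparison of genera, 343 genes passed, 335 of them higher in *Arundinella* and 8 lower. The count was 799 with a pseudocount of 0.1, 0 with 10 (limma, with 4517 genes at an unadjusted p under 0.05), 20 under quantile normalization (8 higher, 12 lower), 160 with median-of-ratios scaling, 621 without trend and 181 with scaling to a common sum, the last chosen after seeing the data. It was 21 to 6105 with 1 library left out: 6105 without *A. hirta*, 623 without *I. cylindrica*, 97 without *A. pubescens*, 94 without *A. fluviatilis*, 93 without *A. anomala*, 81 without *B. ischaemum* and 21 without *C. parviflorum*. No transporter was called in any setting tried but DiT1 without *A. hirta* (6.85). With 1 library left out, log2 differences ran from 4.42 to 6.85 for DiT1, −0.91 to 1.38 for DiT2, −0.33 to 0.18 for TPT and −1.60 to 3.74 for PPT. The sign turned for DiT2 without *A. nepalensis* (−0.21) or *C. parviflorum* (−0.91), for TPT without *A. nepalensis* (0.18) or *B. ischaemum* (0.051), and for PPT without *A. anomala* (−0.059), *A. fluviatilis* (−0.052), *C. parviflorum* or *I. cylindrica* (−1.60 each). Signs also turned with a pseudocount of 10 for DiT2 (−0.054) and PPT (−1.14), and in the other scalings given above for DiT2 (−2.03, −0.60 and −0.64) and PPT (−1.42, −0.36 and −0.35). The causes were not tested.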
